A study of Arabidopsis thaliana with 6 samples.

Results

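The basic helix-loop-helix (bHLH) transcription factors described here are the genes whose title in the deposited array table names that protein family, apart from 8 genes left out by the rule. Those 8 are 7 regulators of the iron deficiency response and MYC2, a master regulator of jasmonate responses. The table held 91 probe sets with such a title, so 83 genes, 1 probe set each, make up the set, out of 22746 probe sets for plant transcripts. Transcripts were read on ATH1 whole-genome arrays (Affymetrix). The RNA came from leaves of Arabidopsis thaliana seedlings aged 2 weeks and raised on agar plates with 1.5% sucrose under 16 h of light at 22 °C and 8 h of dark at 20 °C. Of the 6 arrays, 3 carried RNA of the essp3 mutant, which has a lesion in the chromatin remodelling ATPase gene BRAHMA and whose allele the labels call brm5 in one place and brm-6 in another. The other 3 carried RNA of the wild-type line ProβCG:GUS, which carries a GUS reporter under a seed storage protein promoter. The study asked which transcripts depend on BRAHMA in leaves. The replicates of a group are called biological by the labels, which do not say whether plants were pooled or at what hour leaves were taken.

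Proteins of the bHLH family pair with each other through a helix-loop-helix region and use a basic stretch next to it to bind DNA, often at E-box sequences such as the G-box. Some small members lack a working basic stretch and act by holding other bHLH proteins in inactive pairs. In leaves the family is known for light-controlled growth through the phytochrome-interacting factors (PIFs), for each step of stomatal development, for jasmonate responses, for flowering time and for iron supply.

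The set goes beyond its working name in one respect. It kept bHLH34 and bHLH121, which are activators of the iron deficiency response, and bHLH11, known as a repressor of it, so it is not free of iron regulators. One member, AT5G01310, has a bHLH title in the table but is called APTX, aprataxin-like, in RefSeq. The title rule also misses family members: of 83 bHLH genes on the array that stand in the role lists used below, 16 have another title and are not described. Of the 83 members, 24 stand in no role list.

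Marker genes were read to check the leaf label. The photosynthesis genes RBCS1A and RCA were Present on all 6 arrays, with a summed signal of 103086 to 112737 in the mutant and 99491 to 123737 in wild type, while the meristem genes STM, BP, CLV3 and WUS had no Present call on any array. Of the root genes PLT1, PLT2, EXP7 and COBL9, only COBL9 had a Present call, on 1 array. Of the flower genes AP3, PI, AG and SEP3, only PI and SEP3 were detected, and SEP3, Present on all 6 arrays, fell by 0.85 on the log2 scale (adjusted p = 0.00101). Present, Marginal and Absent are the detection calls that the MAS5 software gives each probe set on each array. Between 56.3% and 60.3% of probe sets were Present per array, and each array had been scaled to a mean signal of 1000. Over the tested probe sets, log2 signals of arrays of the same group correlated at 0.961 to 0.978, and those of different groups at 0.899 to 0.936. The array names place the mutant and the wild-type arrays in separate runs, so run and genotype cannot be told apart. The 25S ribosomal RNA control read 371 to 483 on the mutant arrays and 4149 to 7797 on the wild-type arrays, and its part in the results was not tested.

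A gene was tested where it was Present on at least 3 of the 6 arrays, which 48 of the 83 members met (57.8%, against 59.9% of all probe sets). Of these, 12 rose and 7 fell in the mutant at an adjusted p under 0.05 in limma, which is 39.6% of the tested members. Over all 13626 tested probe sets 28.4% passed, 14.4% upward and 13.9% downward. With 1 array left out the members' share ran from 20.8% to 37.5%. It was below the share of all probe sets without mutant replicate 1 (20.8% against 22.6%), close to it without replicate 2 of wild type (22.9% against 21.0%), and furthest above it without replicate 3 of wild type (37.5% against 23.9%). Changes of the 19 called members ran from -0.96 to 1.86 on the log2 scale, and 4 called members differed at least 2-fold, all upward: AT5G50915, UNE10, bHLH093 and FBH3. They are 8.33% of the tested members, and the same limit held for 6.94% of all tested probe sets. With 1 array left out the log2 fold change of bHLH093 went down to 0.98 (without mutant replicate 2) and that of FBH3 to 0.72 (without replicate 1 of wild type), under 2-fold. The median log2 fold change, mutant minus wild type, was 0.03 over the tested members and -0.01 over all tested probe sets. Its size without regard to sign had a median of 0.47 and 0.31. With 3 arrays a group the array number limits the precision, and the median standard error (SE) of a member's log2 fold change was 0.19.

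**Figure D1:**
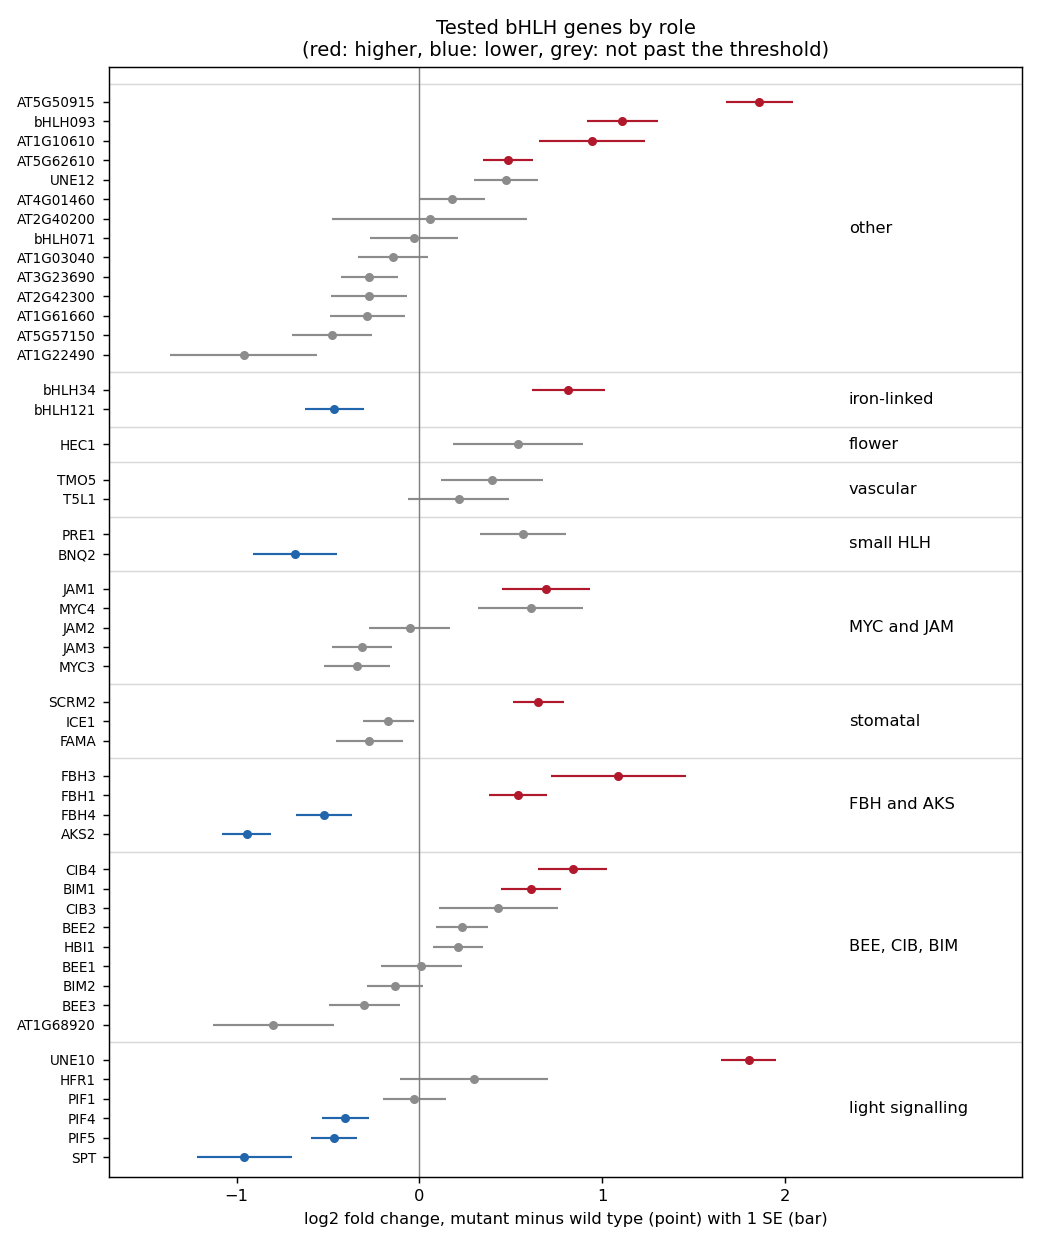
Log2 fold change (mutant minus wild type, horizontal axis) of each of the 48 tested members, with bars of 1 SE, grouped by role. The 12 red genes rose and the 7 blue genes fell. The light signalling group, the FBH and AKS group and the iron-linked group hold both colours.

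Among the light-signalling members, 1 of 6 tested genes rose and 3 fell, against 14.4% and 13.9% of all tested probe sets. UNE10, a member of the PIF clade named after an embryo sac mutant, read 2082, 1758 and 1945 on the mutant arrays and 655, 478 and 537 on the wild-type arrays. The lowest mutant signal was above the highest wild-type signal by a wide margin. The rise was 3.485-fold (log2 fold change 1.80, SE 0.15, adjusted p = 2.76e-06), and it passed the threshold without any 1 array (highest adjusted p = 5.41e-05).

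PIF4 and PIF5, which promote elongation growth and are degraded once phytochrome B is activated by light, both fell. PIF4 read 1234, 1367 and 1200 in the mutant and 1756, 1611 and 1663 in wild type, with no overlap (log2 fold change -0.41, SE 0.13, adjusted p = 0.0289). PIF5 read 3082, 2822 and 2763 against 4511, 3982 and 3549, again with no overlap (log2 fold change -0.47, SE 0.13, adjusted p = 0.0127). These falls were near the threshold. The PIF4 call was lost on dropping mutant replicate 1 or 3 (adjusted p = 0.0775 and 0.0766) or replicate 1, 2 or 3 of wild type (adjusted p = 0.0726, 0.0585 and 0.0511), and the PIF5 call without mutant replicate 2 (adjusted p = 0.0540). Without the intensity trend in the variance model the adjusted p was 0.0588 for PIF4 and 0.0518 for PIF5.

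SPT, a repressor of leaf and cotyledon growth that also shapes the carpel, fell from 238, 233 and 261 in wild type to 133, 100 and 149 in the mutant. This came to a log2 fold change of -0.96 (SE 0.26, adjusted p = 0.0140). One of the 3 mutant arrays, replicate 2, did not call it Present, and without that array the adjusted p was 0.0551, while without the detection filter it was 0.0516. PIF1, which represses seed germination in the dark, read 559 to 670 in the mutant and 542 to 790 in wild type (adjusted p = 0.919). HFR1, an atypical member that holds PIFs in inactive pairs, gave a log2 difference of 0.30 with an SE of 0.41 (adjusted p = 0.620). ALC, a fruit opening factor, was Present on 2 arrays only and PIF6 on none, so neither was tested.

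Of 15 tested genes around the PIFs that are not bHLH genes, 2 rose and 3 fell, with a median log2 fold change of -0.06. Over all tested probe sets 14.4% rose and 13.9% fell. ELF4, an evening clock gene whose product helps to repress PIF4 and PIF5, rose from 254 ± 59.6 to 685 ± 78.1 (mean ± SD, n = 3 arrays; log2 fold change 1.45, adjusted p = 0.000124). FHL, whose product helps phytochrome A into the nucleus, read 63.2 to 86.8 in the mutant with no Present call and 170 to 306 in wild type. That is 2.9-fold lower (adjusted p = 0.00444), and the size is uncertain because no mutant array called FHL Present. Its log2 fold change was -1.54, and -1.28 without replicate 3 of wild type. FHL met the detection filter through wild type only, so its place among the 3 falls rests on the group where it was high. The auxin response gene IAA29, a PIF target, fell by 1.02 (adjusted p = 0.0223), with wild-type arrays at 293, 884 and 541 that overlap the mutant range of 226 to 302. The call for IAA29 was lost on dropping mutant replicate 1 or 2 (adjusted p = 0.0635 and 0.0809) or replicate 2 or 3 of wild type (adjusted p = 0.119 and 0.0540). IAA19, ATHB2, YUC8 and XTH15 of the same list did not pass (adjusted p from 0.0889 to 0.854). Their log2 fold changes were 0.215, -0.06, -0.67 and -0.70. COP1, a light-signalling ubiquitin ligase gene, gave a log2 difference of 0.49 (adjusted p = 0.0237), a call that was lost on dropping mutant replicate 1 (adjusted p = 0.109) or replicate 2 or 3 of wild type (adjusted p = 0.0572 and 0.0602). The phytochrome A gene PHYA fell by 0.51 (adjusted p = 0.0463), with overlapping groups. Its call was lost on dropping any array but replicate 1 of wild type (adjusted p from 0.0592 to 0.194). ELF3 had a log2 fold change of 0.205 and did not pass (adjusted p = 0.552).

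All 4 tested members of the FBH and AKS group passed the threshold, 2 in each direction, against 28.4% of all tested probe sets. FBH proteins bind the promoter of the flowering gene CONSTANS. The same clade, under the name AKS, is known for raising potassium channel genes in guard cells until abscisic acid signalling phosphorylates it. AKS2 read 921, 860 and 907 in the mutant and 1823, 1531 and 1841 in wild type. No mutant array came near the wild-type range; the log2 fold change came to -0.95 (SE 0.13, adjusted p = 0.000179; at most 0.00200 with any 1 array left out). FBH4, also called AKS3, read 445, 526 and 500 against 652, 778 and 682 (log2 fold change -0.52, SE 0.15, adjusted p = 0.0209).

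The other two members of this group were higher in the mutant. FBH1 read 909, 830 and 686 in the mutant and 529, 516 and 620 in wild type, with no overlap (log2 fold change 0.54, SE 0.16, adjusted p = 0.0217). The name of its probe set flags probes that match more than one transcript, so another transcript may add to this signal. FBH3, also called AKS1, read 263, 147 and 295 against 64.0, 143 and 130, with only 1 Present call in wild type (log2 fold change 1.09, SE 0.37, adjusted p = 0.0405). The lowest mutant and the highest wild-type signal of FBH3 nearly touched.

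Of these 4 calls that of AKS2 alone held with each array left out. The call for FBH4 was lost on dropping mutant replicate 1 (adjusted p = 0.0768) or replicate 2 of wild type (adjusted p = 0.0923). That for FBH1 was lost on dropping mutant replicate 1 or 2 (adjusted p = 0.0920 and 0.0793) or replicate 1 or 2 of wild type (adjusted p = 0.0506 and 0.0786). That for FBH3 was lost on dropping mutant replicate 1 or 3 (adjusted p = 0.136 and 0.159) or replicate 1 of wild type (adjusted p = 0.130), and also with no detection filter, no intensity trend or array weights in the fit (adjusted p = 0.104, 0.0686 and 0.0818).

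**Figure D2:**
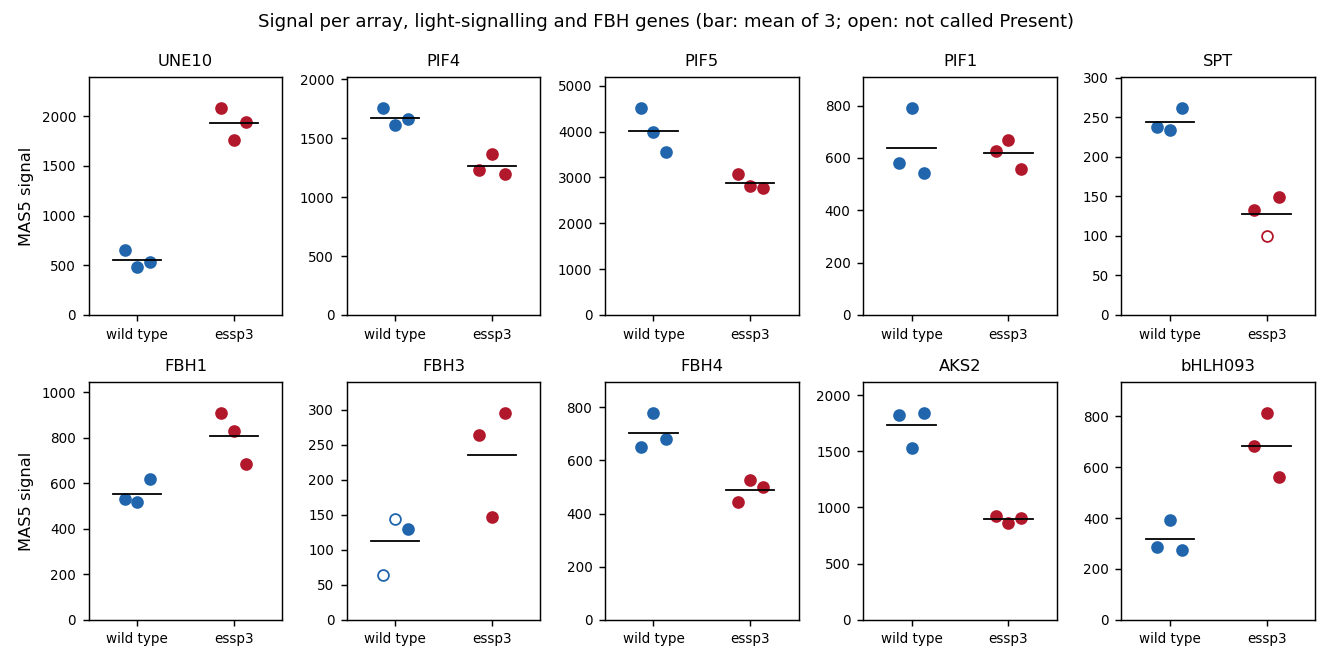
MAS5 signal (vertical axis, linear, from 0) on each array for 10 members, with wild type in blue and essp3 in red; the bar is the mean of 3 arrays and an open circle was not called Present. UNE10, FBH1, FBH3 and bHLH093 are higher in the mutant, PIF4, PIF5, SPT, FBH4 and AKS2 lower, and PIF1 overlaps.

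In the stomatal lineage, SPCH starts the lineage, MUTE ends its divisions and FAMA sets guard cell fate, each in a pair with ICE1 or SCRM2. SCRM2 rose: it read 1422, 1788 and 1770 in the mutant and 1089, 1070 and 998 in wild type (log2 fold change 0.65, SE 0.14, adjusted p = 0.00329). The 3 mutant arrays were all above the wild-type arrays, and the call held with each array left out (highest adjusted p = 0.0244). ICE1, by contrast, read 965 to 1170 against 1094 to 1323 (log2 fold change -0.17, SE 0.14, adjusted p = 0.400). FAMA read 404 to 434 against 413 to 645 (log2 fold change -0.27, SE 0.18, adjusted p = 0.290).

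SPCH and MUTE were not tested because they had too few Present calls. SPCH read 232, 311 and 259 in the mutant and 191, 122 and 158 in wild type, with no Present call on any array. MUTE read 84.9, 94.2 and 139 against 16.3, 50.5 and 8.04, with 1 Present call, on mutant replicate 3. For both, all 3 mutant signals exceeded all 3 wild-type signals, as they did in that direction for 8.25% of the 9120 untested probe sets. bHLH093 and bHLH071, known as partners of FAMA, gave log2 fold changes of 1.11 and -0.03, at adjusted p = 0.000872 and 0.941.

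Of 8 tested genes of stomatal peptides, receptors, a protease and a kinase, 2 rose and none fell, against 14.4% and 13.9% of all tested probe sets. The polarity genes BASL and POLAR had no Present call and were not tested. STOMAGEN, which encodes a mesophyll peptide that promotes stomatal formation, read 1506, 2285 and 2201 in the mutant and 948, 957 and 831 in wild type (log2 fold change 1.11, SE 0.17, adjusted p = 0.000252). EPF2, the peptide gene that limits entry into the lineage, read 229, 228 and 210 against 148, 82.7 and 75.4 (log2 fold change 1.19, SE 0.32, adjusted p = 0.0132), a call that was lost on dropping mutant replicate 2 (adjusted p = 0.0528). It was not called Present on replicates 2 and 3 of wild type, so the size of its rise is uncertain. The receptor gene TMM gave a log2 difference of 0.43 (adjusted p = 0.0742) and the protease gene SDD1 -0.33 (adjusted p = 0.148).

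Genes of mature guard cells went the other way. All 4 on the array fell, against 13.9% of all tested probe sets. GC1 fell by 1.81, MYB60 by 1.31, the anion channel gene SLAC1 by 1.17 and the potassium channel gene KAT1 by 1.02 on the log2 scale, with adjusted p from 8.23e-07 to 0.00370. Their summed signal was 5468 to 5668 on the mutant arrays and 16391 to 22351 on the wild-type arrays. Most of that sum is GC1, which alone read 4637 to 4995 in the mutant and 14223 to 20555 in wild type. In whole leaves, fewer cells of a type and less RNA per cell cannot be told apart. The part of guard cell number in the values of the AKS and stomatal genes was not tested.

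**Figure D3:**
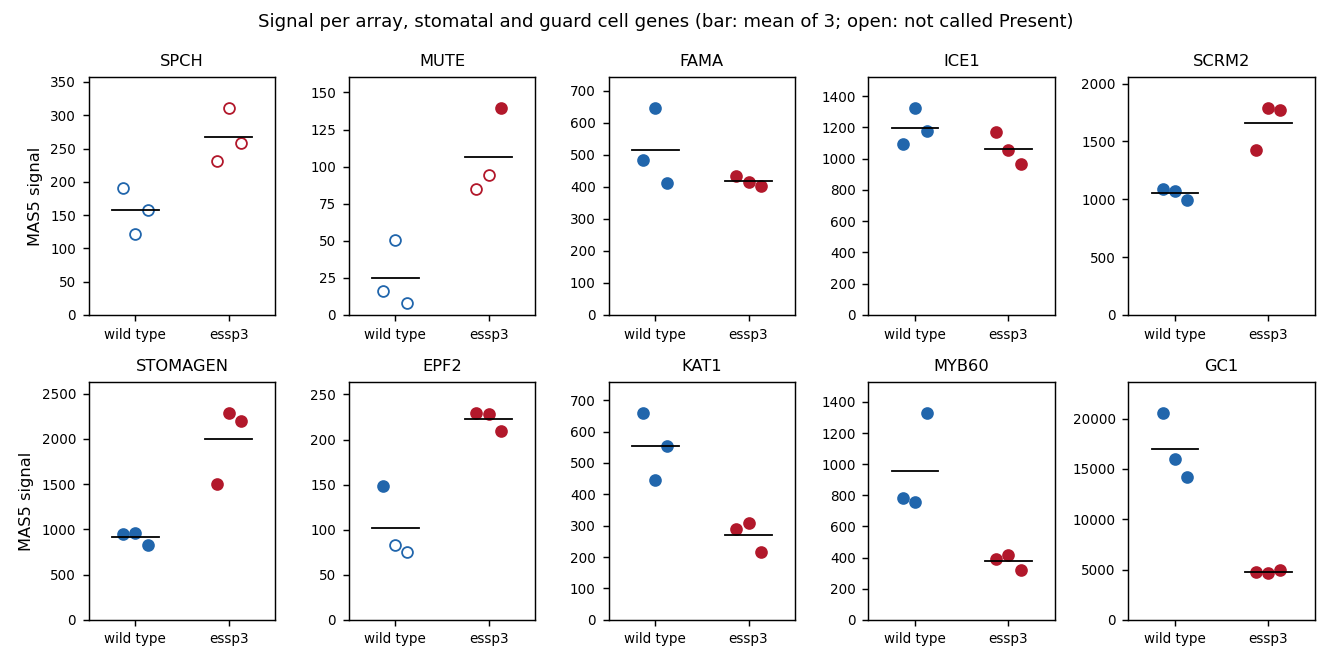
MAS5 signal (vertical axis, linear, from 0) on each array for 5 stomatal bHLH genes (top row), and for 2 stomatal peptide genes and 3 guard cell genes (bottom row); the bar is the mean of 3 arrays and open circles were not called Present. SCRM2, STOMAGEN and EPF2 are higher in the mutant, KAT1, MYB60 and GC1 lower, and FAMA and ICE1 overlap.

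Of 9 tested members among the brassinosteroid- and cryptochrome-linked growth and flowering factors, 2 rose and none fell. The shares of all tested probe sets were 14.4% and 13.9%. CIB4, a partner of the blue light receptor CRY2, read 468, 413 and 382 in the mutant and 234, 268 and 205 in wild type. These ranges were well apart (log2 fold change 0.84, SE 0.19, adjusted p = 0.00505), and the call held with each array left out. BIM1, which assists the brassinosteroid factor BES1, read 939, 783 and 656 against 493, 563 and 488 (log2 fold change 0.61, SE 0.17, adjusted p = 0.0136). Without mutant replicate 1, the highest array, the adjusted p of BIM1 was 0.0704.

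The related BIM2 gave a log2 difference of -0.14 (SE 0.15, adjusted p = 0.548). The growth activators HBI1, BEE1, BEE2 and BEE3 overlapped between the groups, with log2 fold changes of 0.21, 0.01, 0.23 and -0.30 and adjusted p from 0.251 to 0.979. Without mutant replicate 1 BEE3 passed the threshold (adjusted p = 0.0399). AT1G68920, also called CIL1, read 280, 373 and 123 against 317, 411 and 519 (log2 fold change -0.80, SE 0.33, adjusted p = 0.0879), and it passed without mutant replicate 2 (adjusted p = 0.0295). CIB3 had 0.43 (adjusted p = 0.355), and CIB2, CES and BPE had no Present call.

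Small HLH proteins without DNA binding promote growth by removing inhibitors. BNQ2 fell, with 240, 281 and 240 in the mutant and 500, 482 and 277 in wild type (log2 fold change -0.68, SE 0.23, adjusted p = 0.0405). Wild-type replicate 3 lay within the mutant range. The call was lost on dropping mutant replicate 1, 2 or 3 (adjusted p = 0.101, 0.0652 and 0.0994) or replicate 1 or 2 of wild type (adjusted p = 0.147 and 0.159). Quantile normalization, no intensity trend and no detection filter also ended it (adjusted p = 0.0518, 0.0752 and 0.0895). Its relative PRE1 read 304, 257 and 328 against 265, 164 and 182 (log2 fold change 0.57, adjusted p = 0.0891) and passed the threshold without replicate 1 of wild type (adjusted p = 0.0332). PRE3 had no Present call.

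Among the jasmonate-linked members, against a share of 14.4% over all tested probe sets, 1 of 5 tested genes rose. It was JAM1, which competes with MYC2 and represses jasmonate responses, and it read 294, 316 and 387 in the mutant and 181, 167 and 282 in wild type. This came to a log2 fold change of 0.69 (SE 0.24, adjusted p = 0.0432). Mutant replicate 1 and replicate 3 of wild type almost met, and the call was lost on dropping mutant replicate 1, 2 or 3 (adjusted p = 0.0623, 0.0938 and 0.148) or replicate 1 or 2 of wild type (adjusted p = 0.107 and 0.152). It was also lost with no filter or no intensity trend (adjusted p = 0.105 and 0.0616).

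JAM2 and JAM3, repressors of the same kind, gave log2 fold changes of -0.05 and -0.31, at adjusted p = 0.885 and 0.174. MYC3 and MYC4, which act beside MYC2 as activators, had -0.34 (adjusted p = 0.176) and 0.61 (adjusted p = 0.133), and MYC4 passed with array weights (adjusted p = 0.0471). MYC2 itself, outside the set, read 445 to 621 in the mutant and 182 to 412 in wild type (log2 fold change 0.98, adjusted p = 0.0116). Of 13 tested JAZ repressor, corepressor, receptor and target genes, 2 rose and none fell, against 14.4% and 13.9% of all tested probe sets. VSP1, a classic jasmonate-induced gene, read 216, 231 and 209 in the mutant and 94.1, 80.5 and 30.2 in wild type, where it had no Present call. That is 3.42-fold higher where a wild-type signal under the lowest Present signal of its array is set to that level. The test on the signals as read gave an adjusted p of 0.00593. Without replicate 3 of wild type the log2 fold change of VSP1 went from 1.84 to 1.33. VSP1 met the detection filter through the mutant only, so its place among the 2 rises rests on the group where it was high, and its probe set has shared probes. The repressor gene JAZ12 gave a log2 difference of 0.55 (adjusted p = 0.00979), which was lost on dropping mutant replicate 2 or replicate 2 of wild type (adjusted p = 0.0558 and 0.0523).

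The tested iron-linked members moved in opposite directions. bHLH34 read 457, 432 and 396 in the mutant and 309, 213 and 218 in wild type (log2 fold change 0.82, SE 0.20, adjusted p = 0.00770), with no overlap, and its call held with each array left out. bHLH121 read 1390, 1339 and 1848 against 1720, 2220 and 2375, with mutant replicate 3 inside the wild-type range (log2 fold change -0.47, SE 0.16, adjusted p = 0.0444). That call was lost on dropping mutant replicate 1 or 2 (adjusted p = 0.135 and 0.173) or replicate 2 or 3 of wild type (adjusted p = 0.135 and 0.140). Quantile normalization, no filter and no intensity trend ended it too (adjusted p = 0.0521, 0.0569 and 0.114). bHLH11 had no Present call. Of the 7 tested genes that the rule leaves out, 5 rose and 1 fell, against 14.4% and 13.9% of all tested probe sets. The rises count MYC2, the jasmonate regulator, so not all of them are iron regulators. The fall was that of bHLH104 (log2 fold change -0.84), and the rises include bHLH39 and BHLH101, whose sizes are uncertain because each was Present on only 1 wild-type array.

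The largest rise among the members was that of AT5G50915, a bHLH gene without a further name in the tables used. It read 605, 530 and 663 in the mutant and 168, 159 and 167 in wild type. The wild-type arrays were within a few units of each other, and the lowest mutant signal was far above them. The rise was 3.628-fold (log2 fold change 1.86, SE 0.18, adjusted p = 1.02e-05; at most 0.000201 with any 1 array left out). bHLH093 read 683, 813 and 560 against 286, 394 and 274, without overlap (2.158-fold, SE 0.19 on the log2 scale; adjusted p at most 0.00879 with any 1 array left out).

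Another 2 members known by locus code only rose by less. AT1G10610 read 196, 183 and 248 in the mutant and 130, 94.4 and 101 in wild type (log2 fold change 0.95, SE 0.29, adjusted p = 0.0253). AT5G62610 read 1010, 985 and 964 against 747, 685 and 684 (log2 fold change 0.49, SE 0.14, adjusted p = 0.0161), a small difference with tight groups. The call for AT1G10610 was lost on dropping mutant replicate 1, 2 or 3 (adjusted p = 0.0601, 0.0511 and 0.101), replicate 2 of wild type (adjusted p = 0.0737) or the filter (adjusted p = 0.0842). That for AT5G62610 was lost on dropping mutant replicate 1 or 2 (adjusted p = 0.0513 and 0.0561) or replicate 2 of wild type (adjusted p = 0.0553).

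**Figure D4:**
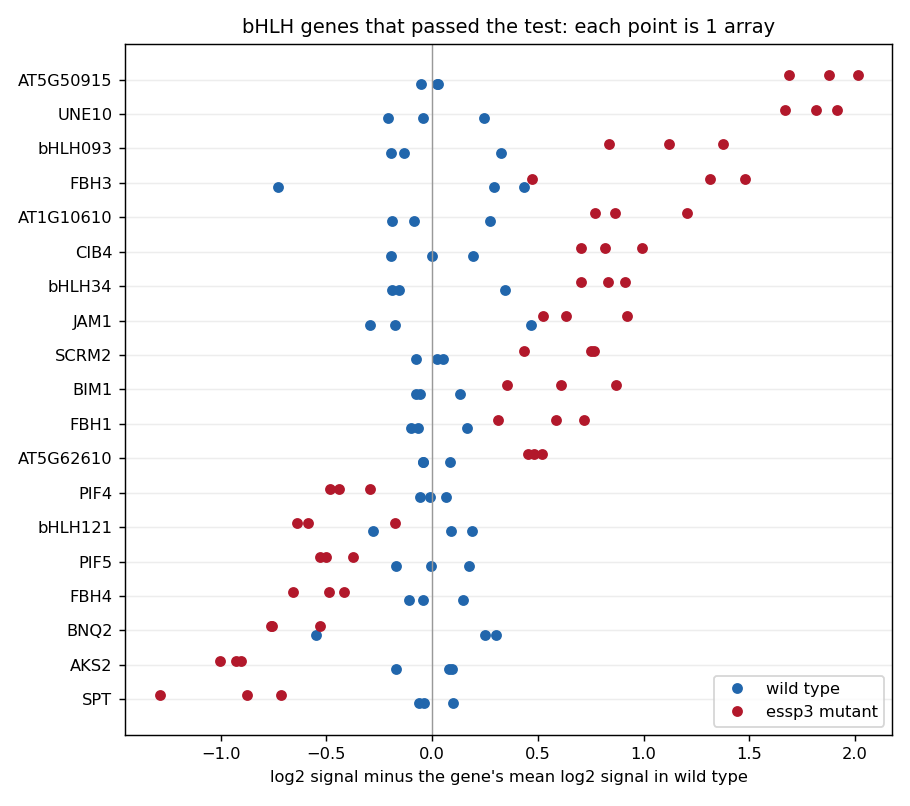
Log2 signal of each array minus the gene's mean log2 signal in wild type (horizontal axis), for the 19 members past the threshold; blue points are the 3 wild-type arrays and red points the 3 mutant arrays. AT5G50915 and UNE10 lie furthest from wild type, and only BNQ2 and bHLH121 overlap between groups.

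Groups of arrays did not overlap for 22 of the 48 tested members (45.8%, against 42.7% of all tested probe sets), and 17 of the 19 called members were among them. The other 5 did not pass the test: UNE12 (log2 fold change 0.47, adjusted p = 0.0573), JAM3, TMO5, AT5G57150 and AT1G22490. UNE12, known from a defect in fertilization, passed the threshold with quantile normalization (adjusted p = 0.0484), with array weights (adjusted p = 0.0150) and without replicate 3 of wild type (adjusted p = 0.0158). TMO5, an early vascular factor, read 157 to 178 in the mutant and 117 to 137 in wild type (log2 fold change 0.40, SE 0.28, adjusted p = 0.317). AT1G22490 entered the test only through wild type, where all 3 arrays called it Present at 131, 105 and 162, while the mutant arrays read 69.7, 65.3 and 65.6 with no Present call. It differed by -0.96 on the log2 scale, or 1.95-fold (SE 0.40, adjusted p = 0.0901), and by -0.81 without replicate 3 of wild type. The size is uncertain because no mutant array called AT1G22490 Present. It passed without the intensity trend (adjusted p = 0.00974). T5L1, a relative of TMO5, and HEC1, a gynoecium factor, overlapped between the groups (adjusted p = 0.602 and 0.287).

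The remaining 35 members were not tested: 27 had no Present call and 8 had 1 or 2. They include all 5 members known from root hairs or listed with them (RHD6, RSL4, LRL1, LRL3 and AT2G14760) and both partners of MYB and WD40 proteins in flavonoid and hair cell control, TT8 and EGL3. The anther factor AMS, the jasmonate-linked NIG1, and NAI1, which controls ER bodies, had no Present call either. Among the 9 MYB, WD40 and target genes around TT8 and EGL3, only TTG1 was tested, and its log2 fold change was 0.07 (adjusted p = 0.777). GL2 and TRY of that list had no Present call, but all 3 mutant signals exceeded all 3 wild-type signals. That order held for 8.25% of untested probe sets, and the groups overlapped for the rest of the list. For 6 of the 35 members (17.1%) the groups did not overlap, against 12.9% of all untested probe sets. SPCH, MUTE and AT1G71200 were above wild type, and ALC, CIB5 and AT2G43140 below it, the latter an order that 4.63% of untested probe sets had. AT1G71200 read 75.5, 57.0 and 82.0 in the mutant and 14.4, 42.4 and 24.1 in wild type, without a Present call, so these are signals below detection.

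**Figure D5:**
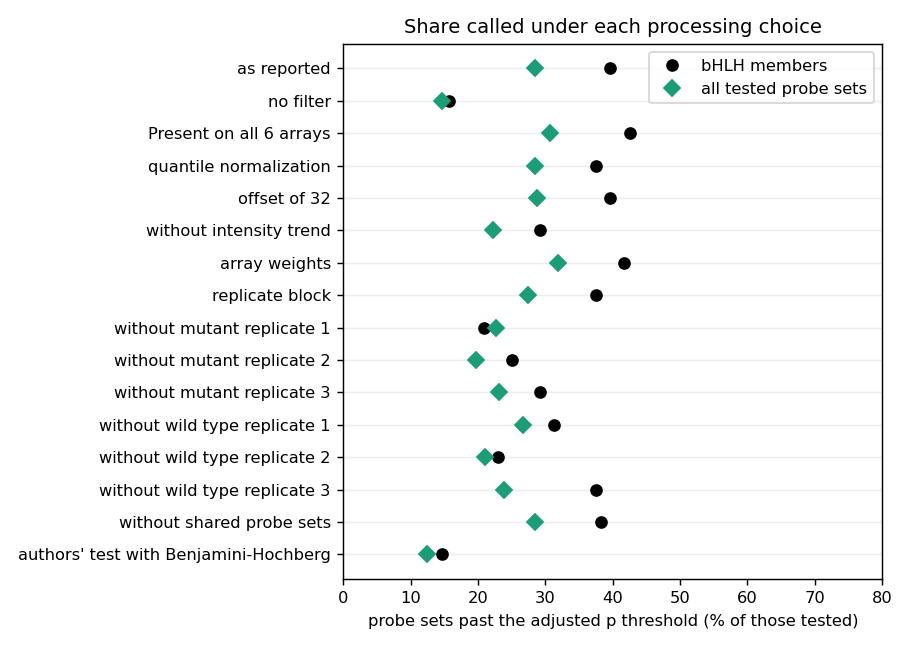
Share of tested probe sets past the adjusted p threshold (horizontal axis, %) under each processing choice (rows), for bHLH members (black circles) and for all probe sets tested (green diamonds). The members stand at 39.6% and all probe sets at 28.4% as reported, and the order turns without mutant replicate 1.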

How the data were processed

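The authors deposited MAS5 signal intensities, scaled per array to a common mean, with a detection call per array. Their deposited table adds a ratio (fold) of group means and an unadjusted p-value from unpaired statistics, per the file headers. No source used here gives the MAS5 settings. The authors' difference of the means, a score on the linear scale, was not used. The series matrix held the same intensities as the deposited table.

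Array columns were tied to samples by the key above the table and the sample titles. The log2 of each signal was taken without adding an offset. With 62 controls set aside, 22746 probe sets remained; 7 held a signal of 0, and none of these was tested. Probe sets Present on at least 3 of 6 arrays (13626) went into limma 3.58.1 (R 4.3.3; lmFit, and eBayes with trend). P-values are two-sided, adjusted over all 13626 by Benjamini-Hochberg, with a threshold of 0.05. They weigh the difference between the groups against the spread of arrays within a group, and they cannot separate genotype from run. The code was first tested on simulated data. With 3 arrays against 3, exact permutation gives no p below 0.1, so none is given.

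All 83 members matched RefSeq (TAIR10.1) by locus code, used for names only. Members, role lists and tests were chosen with earlier results of these data known. Named genes are the 12 largest rises and falls among called members without overlap, Present on all 3 arrays of the higher group, and up to 4 tested members or neighbouring genes per list by adjusted p. Some other members and the marker genes are named as well, chosen after their values were seen. The alternatives tried are listed in the closing section.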

Additional observations from a re-analysis of the deposited data

How the results depend on the processing

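Of the 19 calls, 7 held with each array left out in turn: AT5G50915, UNE10, bHLH093, CIB4, bHLH34 and SCRM2 upward and AKS2 downward. The number of members that rose was 12 and ran from 6 to 13 with 1 array left out. The number that fell was 7 and ran from 3 to 5. The median log2 fold change of 0.03 ran from -0.07 to 0.17. Without the detection filter, 9 rose and 4 fell among all 83 and the median was -0.16. Without the intensity trend 10 rose and 4 fell. With the authors' test adjusted by Benjamini-Hochberg 4 rose and 3 fell. These are not the same 7 genes as those that held with each array left out. In the authors' test bHLH093, bHLH34 and SCRM2 did not pass (adjusted p = 0.0677, 0.0531 and 0.0553). PIF4, SPT and AT5G62610 did (adjusted p = 0.0391, 0.0323 and 0.0179). Quantile normalization gave 13 and 5, and an offset of 32 gave 12 and 7. Array weights gave 13 and 7, probe sets Present on all 6 arrays 11 and 6, and leaving out shared probe sets 11 and 7. With the replicate block 11 rose and 7 fell, the FBH3 call being lost (adjusted p = 0.0502). The numbers are not known to mark a shared batch: deviations of same-numbered arrays correlated at 0.023, 0.020 and 0.032, though each array correlated best with its own number. Of the 30 members picked by the naming rule, none reversed its direction in a called comparison. Over their 475 values, 66 lost a call and 3 gained one. BEE3, UNE12 and AT1G22490 are named outside that rule, so the calls they gained are not in this count. SPCH had no Present call and MUTE had 1, so how far their signals stand above background is uncertain.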
